A study of Mus musculus with 12 samples.

Results

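Female and male germ cells that both carried the Ezh2 conditional knockout (CKO) were compared with each other at E13.5 of mouse development. Members were taken by genotype and sex: the 2 female CKO libraries and the 3 male CKO libraries, which are 5 of the 12 libraries of the study. The other 7 are Ctrl germ cells, 3 female and 4 male, and serve as the reference for how the sexes differ in cells not labelled CKO. Every library holds primordial germ cells sorted from 1 embryo of C57BL/6 background, so replicates are separate embryos. The labels name genotype (CKO or Ctrl) and sex. The Cre driver, the genotype behind Ctrl and the deleted exons are not given in the sources used here, and neither are litters. Of 37991 gene identifiers, 16708 passed a filter on low counts, and 15323 of these are autosomal; results below are for the autosomal genes unless stated.

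Ezh2 is the catalytic subunit of Polycomb repressive complex 2 (PRC2), which places the repressive mark H3K27me3 on histones. Germ cells of the fetal ovary enter meiosis around this stage, after signals that include BMP and retinoic acid switch on Stra8 and the genes of chromosome axes and recombination. Germ cells of the fetal testis do not enter meiosis. They arrest in the mitotic cycle, keep pluripotency genes on for longer, pass through a phase of Nodal signalling and later express Nanos2. Because an ovary is formed by XX embryos and a testis by XY embryos, the effect of the gonad and that of the sex chromosomes cannot be told apart in this design.

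The 5 CKO libraries held between 29108214 and 30892783 assigned counts, and the 12 libraries together between 26180685 and 35299206. Values per library are CPM, the counts of a gene scaled to the library total, after TMM scaling. Y-linked genes matched the labels: Ddx3y was at 0 counts in both female CKO libraries and at 17.3 to 23.9 CPM in the male CKO libraries. Over all 12 libraries the sum of germ cell identity genes ran from 6160 to 7030 CPM. Ezh2 itself was at 84.5 and 107 CPM in the female CKO libraries and at 85.8, 82.4 and 85.0 CPM in the male ones, against means of 154 CPM in Ctrl females and 122 CPM in Ctrl males. The Ezh2 transcript therefore remained detectable in each CKO library, and counts per gene do not show which exons it holds. Its level did not differ by sex among CKO cells (log2 difference 0.18 ± 0.15 SE, edgeR adjusted p = 0.367). All log2 values are female minus male, so a positive value is higher in females.

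Sums of several sets of somatic cell markers differed between the CKO groups too. Sertoli cell markers, the supporting cells of the testis, summed to 13.0 and 12.4 CPM in CKO females and to 35.5, 16.8 and 40.7 CPM in CKO males. Of these 8 markers 5 were called higher in males and 1 in females, Fgf9 at 1.79 and 1.90 CPM against 0.609, 0.277 and 0.275 CPM, with Sox9 and Amh at 0 to 3 counts over both female libraries and none of the 8 at 0 in all libraries. Markers of pre-granulosa cells, their counterpart in the ovary, summed to 25.3 and 22.7 CPM in CKO females and to 12.5, 14.4 and 16.3 CPM in CKO males, with 3 of 8 called higher in females and 1 in males, Gng13 at 1.61 and 1.68 CPM against 5.18, 4.99 and 5.26 CPM. Both were named after their values were seen. The defining pre-granulosa gene Foxl2 was at 0.176 and 0.0903 CPM in the females and at 0 in the males. Endothelial markers summed to 144 and 172 CPM in females and to 247 to 270 CPM in males, most of it Pecam1. Mesonephric epithelium markers summed to 259 and 308 CPM against 554 to 619 CPM, most of it Epcam. Of 6 endothelial markers tested, 0 were called higher in females and 1 in males. Of 6 mesonephric markers tested, 2 were called in each direction. Whether the Pecam1 and Epcam counts came from these cell types was not tested. The part of all these marker sets in the results was not tested. In bulk libraries fewer cells of a type and less RNA per cell cannot be told apart.

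Among Ezh2 CKO germ cells the sexes differed across a large part of the transcriptome. Called genes are those with an edgeR quasi-likelihood adjusted p under 0.05. Among 15323 autosomal genes 2931 (19.1%) were called higher in CKO females and 3073 (20.1%) higher in CKO males, or 39.2% in either direction. Female-higher differences were larger. At least 2-fold differences numbered 1960 in the female direction and 1102 in the male direction, and at least 8-fold differences 510 and 210. The median log2 difference over all autosomal genes was 0.01. The levels of the CKO groups did not overlap for 9941 autosomal genes (64.9%), and for 5982 of the called genes (99.6%). The chromosome with the smallest share of female-higher genes was 16 (14.1%) and the one with the largest was 6 (23.4%). On the X chromosome, for comparison, 238 of 671 tested genes (35.5%) were called higher in CKO females and 32 (4.77%) higher in CKO males. Leaving out female CKO 1 lowered the female-higher count to 1762 and the male-higher count to 2078, of which 1699 and 1980 were calls of the full fit. Calls higher in females were 48.8% of all calls, or 64.9% when libraries were scaled by their totals alone, which moved the median log2 difference by 0.18.

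The 12 genes with the largest female excess included 3 transcription factors of development, an imprinted gene, and genes of germ cells. Phlda2, an imprinted growth regulator of the placenta, was at 319 and 378 CPM in CKO females and at 2.88, 1.94 and 2.30 CPM in CKO males (log2 difference 7.19 ± 0.90 SE, edgeR adjusted p = 0.000249). Cdx2, a homeobox factor of trophectoderm and hindgut, was at 51.8 and 54.7 CPM in females and at 0.135, 0.243 and 0.929 CPM in males (6.92 ± 0.44 SE, adjusted p = 3.96e-07). The naming rule required groups without overlap, and for each of these genes all male libraries lay far below both female ones. Dlx3, a homeobox factor of placenta and ectoderm, was at 72.3 and 66.9 CPM against 0.338, 0.867 and 0.585 CPM (6.86 ± 0.47 SE, adjusted p = 7.84e-07). Hand1, a basic helix-loop-helix factor of trophoblast and heart, was at 17.2 and 24.9 CPM against 0, 0.104 and 0.516 CPM. The peptide hormone gene Sct reached 44.6 and 41.4 CPM in CKO females and no more than 0.508 CPM in CKO males. The other female-led genes of the same rule were Dmrtb1, H2-Ab1, Alpk3, Figla, Stra8, Ifitm10 and Trmt9b, with log2 differences from 5.83 to 6.79.

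The 12 genes with the largest male excess included Lefty2, Lefty1 and Tdgf1, genes of the Nodal list. Lefty2, a secreted inhibitor and target of Nodal, was at 0.322 and 0.481 CPM in CKO females and at 711, 801 and 734 CPM in CKO males (log2 difference -10.85 ± 0.45 SE, edgeR adjusted p = 7.06e-09). No other gene that the naming rule admitted for the male direction had a larger fitted log2 difference. Otx2, a homeobox factor of forebrain and of the epiblast, had 1 count over both CKO females and 1194 counts over the CKO males, a ratio of pooled CPM of 920 (95% counting interval 165 to 36400, adjusted p = 2.41e-05). Hesx1, a repressor of the anterior forebrain and pituitary, was at 0.439 and 0.391 CPM against 67.4, 76.7 and 81.5 CPM. Pmaip1, which encodes the p53 target and BH3-only protein NOXA, was at 2.11 and 2.68 CPM in CKO females and at 244, 355 and 361 CPM in CKO males (-7.06 ± 0.52 SE, adjusted p = 3.1e-06). Etv1, an ETS factor of FGF signalling, was at 0.995 and 2.44 CPM against 90.9, 104 and 77.4 CPM (-5.72 ± 0.39 SE, adjusted p = 6.37e-07). Cst9, which is also on the Sertoli list, had no count in either CKO female and 487 counts over the CKO males, so it was at least 125-fold higher in males against a floor of 3 counts over the group.

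**Figure D1:**
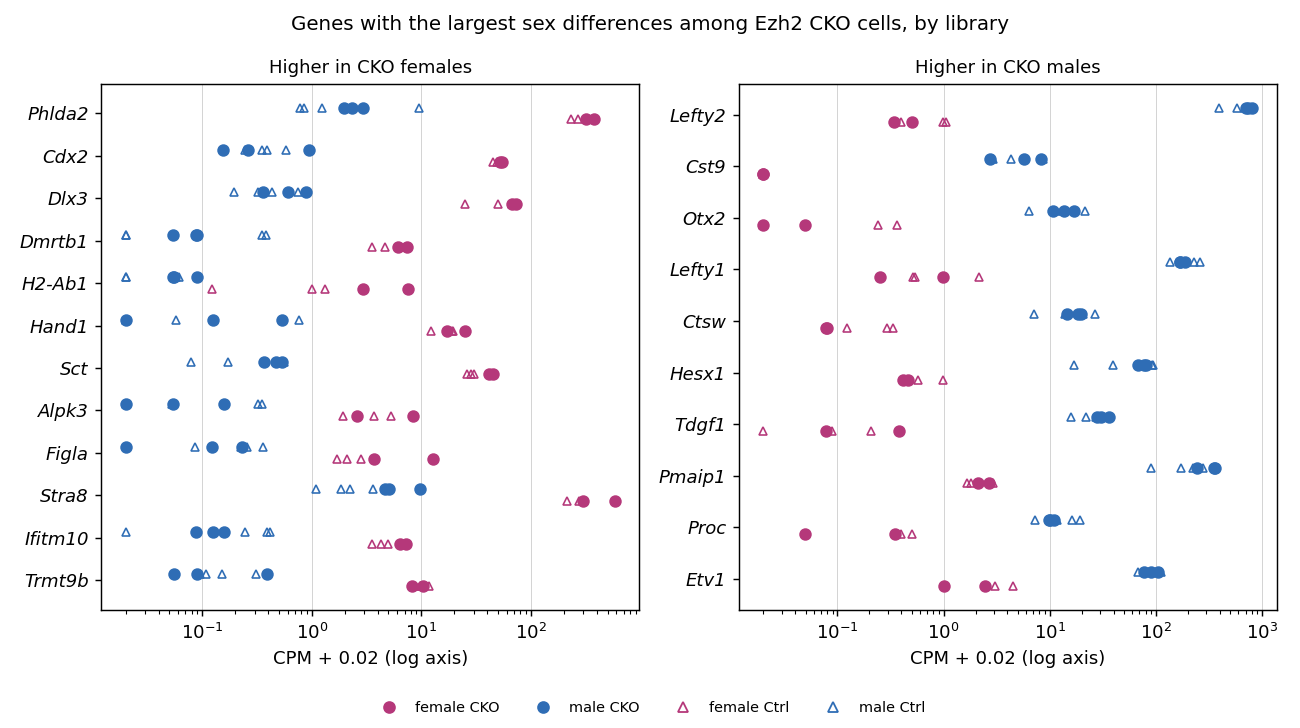
Level of 12 autosomal genes with the largest female excess (left) and of 10 of the 12 with the largest male excess (right) among CKO cells, 1 point per library, CPM plus a small offset on a log axis; filled points are CKO and open triangles Ctrl. Filled female and male points stay apart for every gene, which the rule that chose the genes required. Lefty2, for example, was at 0.322 and 0.481 CPM in females against 711 to 801 CPM in males.

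Lists of genes by pathway and process divided by sex. Each list is described by its calls in the 2 directions, to be read against the 19.1% and 20.1% of all autosomal genes. When a CKO library was left out the shares over all autosomal genes fell too, to 11.0% female-higher and 13.0% male-higher without female CKO 1, and to between 13.8% and 16.9% and between 14.4% and 17.5% without any other. Counts given below without a library are to be read against those. Meiotic, BMP, Wnt, retinoic acid, developmental and imprinted genes held mostly female-higher calls. Pluripotency, Nodal, FGF, glycolysis, apoptosis and mitotic genes held mostly male-higher calls. Members of a list are not replicates of a condition, and several genes stand on more than 1 list. Groups without overlap were found for 99.6% of all called autosomal genes. Where this is stated for a called gene below, it describes the values and adds no support to the call.

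**Figure D2:**
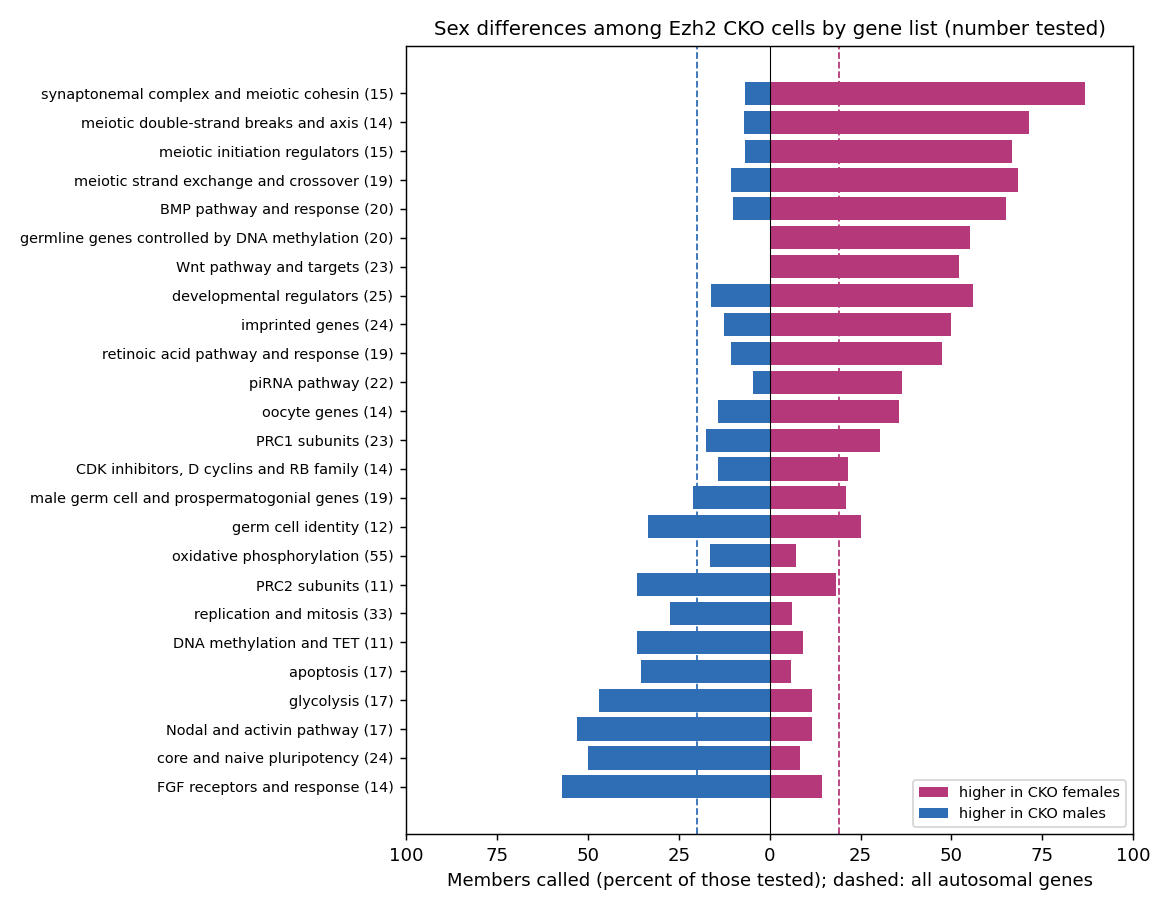
Share of the tested members of each pathway and process list (cell type marker lists are not drawn) that were called higher in CKO females (right) or CKO males (left), in percent, with the number tested in parentheses and the shares over all autosomal genes (19.1% and 20.1%) as dashed lines. Of the lists drawn, the 4 meiotic lists extend farthest to the right, and the FGF, Nodal and pluripotency lists farthest to the left.

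Meiotic genes were mostly called higher in females. In the 4 meiotic lists together 46 of 63 tested genes (73.0%) were called higher in CKO females and 5 (7.94%) higher in CKO males, with a median log2 difference of 1.03 beside 0.01 over all autosomal genes. Leaving out female CKO 1 lowered these counts to 28 (44.4%, beside 11.0% over all autosomal genes in that fit) and 3 (4.76%, beside 13.0%) and the median to 0.73. By step, the female and male calls were 10 and 1 of 15 initiation regulators, 13 and 1 of 15 synaptonemal complex and cohesin genes, 10 and 1 of 14 double-strand break and axis genes, and 13 and 2 of 19 strand exchange and crossover genes. Without female CKO 1 the female calls were 9, 6, 6 and 7 in the same order, each to be read against the same 11.0%. The male calls of the strand exchange list were 1 without any of female CKO 1, female CKO 2, male CKO 1 or male CKO 2.

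The promoters of 3 of these germ cell genes are shown because their levels separated the sexes and short motifs known from germ cell gene promoters could be looked up in them. Each is 300 bases of RefSeq sequence (GRCm38.p6), 250 before and 50 after the start, written 5′ to 3′ in the direction of the gene. Capitals mark the motif matches found on either strand: AGGTCA, a site bound by nuclear receptors such as retinoic acid receptors, which 16.3% of 32851 promoters of this length hold; CACGTG, the E-box bound by MGA and MAX, which 7.15% hold; and CNCCTCAG, a motif linked to STRA8 binding, which 7.94% hold. These motifs do not overlap each other in the sequences shown. The E2F motif GGCGGGAA, which 2.19% hold, was looked up too and was in none of the 3 windows. The Stra8 window, chr6:34920698-34920997 on the plus strand, held AGGTCA 194 and 38 bases before the start. The Sycp3 window, chr10:88459337-88459636 on the plus strand, held CACGTG 64 and 43 bases before the start and AGGTCA 213 bases before it. The Figla window, chr6:86016941-86017240 on the plus strand, held CNCCTCAG 91 bases before the start and, on the opposite strand, just after it. A match describes the letters and says nothing about binding in these cells.
Stra8: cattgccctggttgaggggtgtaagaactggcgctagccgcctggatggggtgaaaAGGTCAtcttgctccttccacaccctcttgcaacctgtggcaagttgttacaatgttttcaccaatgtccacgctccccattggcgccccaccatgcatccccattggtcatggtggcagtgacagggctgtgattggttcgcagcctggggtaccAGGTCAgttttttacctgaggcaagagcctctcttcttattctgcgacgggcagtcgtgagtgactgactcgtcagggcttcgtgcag
Sycp3: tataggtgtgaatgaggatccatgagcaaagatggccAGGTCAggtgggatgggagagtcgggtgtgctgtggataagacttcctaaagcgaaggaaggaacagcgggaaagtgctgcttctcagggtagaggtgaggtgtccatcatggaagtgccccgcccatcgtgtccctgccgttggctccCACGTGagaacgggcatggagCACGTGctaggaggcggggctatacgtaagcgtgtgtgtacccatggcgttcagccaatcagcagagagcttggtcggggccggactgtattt
Figla: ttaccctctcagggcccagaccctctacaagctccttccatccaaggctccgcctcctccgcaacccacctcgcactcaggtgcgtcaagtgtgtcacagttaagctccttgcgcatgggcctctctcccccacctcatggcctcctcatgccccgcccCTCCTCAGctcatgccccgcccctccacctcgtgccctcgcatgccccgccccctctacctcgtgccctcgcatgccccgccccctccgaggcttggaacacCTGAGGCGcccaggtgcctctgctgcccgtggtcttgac

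Among initiation regulators, Stra8, the retinoic acid target required for meiotic entry, was at 580 and 300 CPM in CKO females and at 4.67, 9.74 and 5.02 CPM in CKO males (log2 difference 6.09 ± 0.42 SE, edgeR adjusted p = 2.17e-06). Both female libraries stood far above every male one, and female CKO 1 was the highest. Gata2, a zinc finger factor downstream of BMP, was at 246 and 310 CPM against 5.31, 6.14 and 6.50 CPM (5.54 ± 0.48 SE, adjusted p = 1.12e-05). Msx1 and Msx2, homeobox factors that act in meiotic initiation, were at 205 and 132 CPM and at 94.1 and 117 CPM in CKO females, and at no more than 6.28 and 2.95 CPM in CKO males. E2f6, a repressor of germline genes and a variant PRC1 partner, was the 1 initiation gene called higher in males, at 35.5 and 38.6 CPM against 67.2, 83.3 and 80 CPM (-1.05 ± 0.13 SE, adjusted p = 4.51e-05). Dazl, an RNA-binding licensing factor of germ cells, was at 3220 and 3130 CPM in females and at 2300, 2680 and 2650 CPM in males (0.32 ± 0.09 SE, adjusted p = 0.0122), a call that was lost without female CKO 1 (adjusted p = 0.083).

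Most axis and synaptonemal genes were called higher in females and were present in both sexes. Rec8, the meiotic cohesin kleisin, was at 185 and 160 CPM in CKO females and at 8.32, 7.66 and 10.2 CPM in CKO males (log2 difference 4.30 ± 0.51 SE, edgeR adjusted p = 6.95e-05). Sycp3, an axial element protein whose promoter is shown above, was at 216 and 102 CPM against 27.9, 36.0 and 38.6 CPM (2.22 ± 0.24 SE, adjusted p = 2.5e-05). Smc1b, the meiotic SMC cohesin subunit, was at 661 and 560 CPM against 143, 193 and 194 CPM (1.79 ± 0.18 SE, adjusted p = 1.52e-05). The groups did not overlap for any of the 3 genes, and the female libraries differed among themselves more in Sycp3 than in the other two. Hormad1, which marks unsynapsed axes, was at 370 and 299 CPM in females and at 109, 124 and 141 CPM in males. Syce3, a central element protein, was at 8.72 and 4.63 CPM against 1.52, 1.46 and 1.69 CPM.

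Most recombination genes were also called higher in CKO females. Mei1, needed for double-strand break formation, was at 21 and 4.96 CPM in CKO females and at 0.203, 0.936 and 0.722 CPM in CKO males (log2 difference 4.38 ± 0.72 SE, edgeR adjusted p = 0.000427). Dmc1, the meiotic strand exchange recombinase, was at 107 and 59.2 CPM against 16.6, 22.4 and 22.4 CPM (2.02 ± 0.25 SE, adjusted p = 5.29e-05). Meiob, a single-strand DNA binding protein of recombination, was at 29.7 and 16.6 CPM against 1.49, 1.32 and 2.37 CPM (3.74 ± 0.41 SE, adjusted p = 2.45e-05). No male library reached the lower female value for these genes. Majin, which tethers telomeres to the nuclear envelope, was at 17.7 and 7.91 CPM in females and at 0.728 to 1.59 CPM in males, and Ccnb1ip1, a crossover factor, at 82.9 and 59.7 CPM against 23.2 to 29.8 CPM. Tex15, which acts in recombination and in transposon silencing, was at 377 and 222 CPM against 97.7 to 122 CPM. Trip13, the AAA ATPase that removes HORMAD proteins from axes, went the other way, at 118 and 118 CPM in females and at 172, 208 and 196 CPM in males (-0.70 ± 0.11 SE, adjusted p = 0.000257). Spo11, which makes the breaks, was at 19.4 and 13.3 CPM against 15.1, 10.5 and 18.3 CPM and was not called (adjusted p = 0.723). It was chosen after its values were seen.

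**Figure D3:**
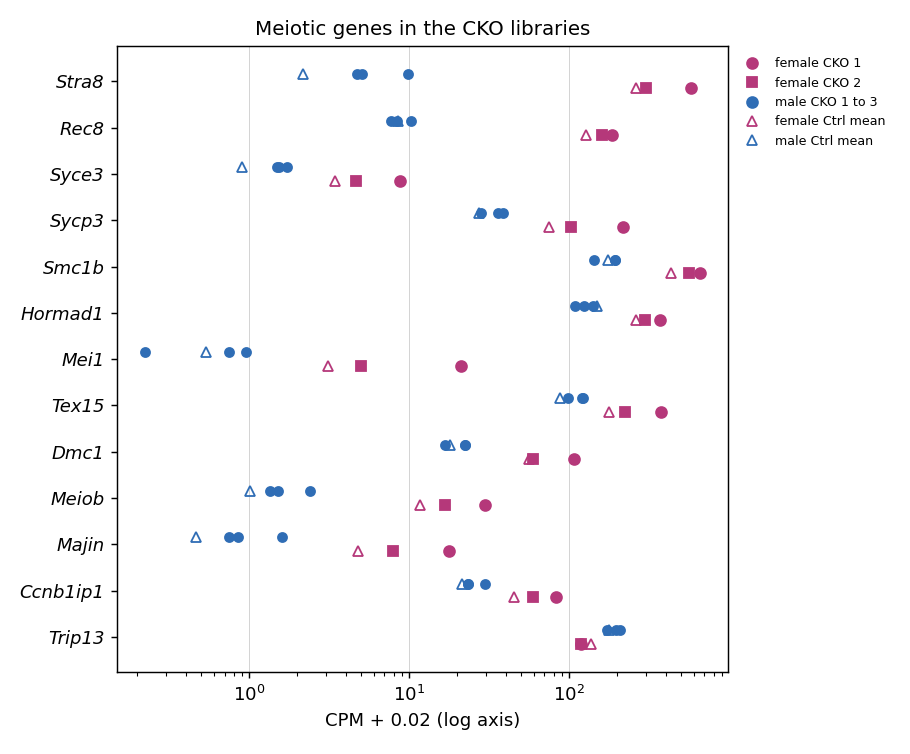
Level of 13 meiotic genes in each CKO library, CPM plus a small offset on a log axis, with triangles for the Ctrl means; the female CKO circle is replicate 1 and the square replicate 2. Female CKO points lie to the right of all male CKO points for every gene except Trip13, and female CKO 1 lies at or to the right of female CKO 2.

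Of 14 oocyte genes tested, 5 (35.7%) were called higher in CKO females and 2 (14.3%) higher in CKO males, with a median log2 difference of 0.61, or 1.05 without male CKO 3. Figla, the helix-loop-helix factor that starts the zona and follicle programme, was at 12.8 and 3.64 CPM in CKO females and at 0, 0.208 and 0.103 CPM in CKO males (6.26 ± 0.79 SE, edgeR adjusted p = 5.86e-05). Sohlh1, another early oocyte factor, was at 3.89 and 1.65 CPM against 0.102, 0.104 and 0 CPM, and Ybx2, an RNA-binding protein of germ cells, at 27.9 and 31.1 CPM against 10.4, 6.38 and 9.84 CPM. The Figla and Sohlh1 levels were low, and higher in female CKO 1 than in female CKO 2. Nlrp5, which encodes the maternal factor MATER, had 3 counts over both females and 209 over the males, a ratio of 53.7 in the male direction (95% counting interval 18.1 to 262, adjusted p = 0.00175). The male-higher calls were 1 without female CKO 1 and 1 without male CKO 3.

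BMP target genes carried the smallest p-value of the comparison. Of 20 tested BMP pathway and response genes 13 were called higher in CKO females and 2 higher in CKO males (median log2 difference 1.19). Id1, an inhibitor of helix-loop-helix factors and a direct BMP target, was at 115 and 92.6 CPM in CKO females and at 2.84, 2.64 and 2.37 CPM in CKO males (5.30 ± 0.18 SE, edgeR adjusted p = 1.29e-09). Id2 was at 102 and 104 CPM against 10.2, 13.4 and 12.4 CPM (3.10 ± 0.21 SE, adjusted p = 6.37e-07). Male levels of both lay in a narrow band well below either female library. Gata3, a zinc finger factor, was at 10.7 and 14.7 CPM in females and at 0.541, 0.485 and 0.482 CPM in males (4.65 ± 0.40 SE, adjusted p = 4.69e-06). Among ligands, chosen after their values were seen, Bmp2 was at 5.74 and 5.33 CPM against 0.372, 0.416 and 0.585 CPM (adjusted p = 0.000248), and Bmp4 at 1.87 and 4.48 CPM against 17.0, 20.5 and 18.5 CPM (adjusted p = 0.000523). Bmp2 is also a pre-granulosa marker and is itself part of the sums of those markers given above, so the sums are not separate evidence. Whether its counts came from such cells was not tested.

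Calls among retinoic acid and Wnt genes were mostly female-higher. Of 19 retinoic acid genes 9 were called higher in CKO females and 2 higher in CKO males (median 0.57). The median was 0.92 without female CKO 1, 0.90 without male CKO 2 and 1.13 without male CKO 3, and the female calls were 6 without female CKO 1. Rarb, a retinoic acid receptor and itself a target, was at 10.4 and 14.9 CPM in CKO females and at 0.0677, 0.555 and 0.722 CPM in CKO males (log2 difference 4.81 ± 0.66 SE, edgeR adjusted p = 0.000111). Crabp2, a carrier of retinoic acid, was at 42.9 and 32.5 CPM in females and at 4.4, 5.55 and 4.78 CPM in males (2.94 ± 0.33 SE, adjusted p = 2.86e-05). The groups did not overlap for either gene. Of 23 Wnt genes 12 were called higher in CKO females (median 0.59) and 0 higher in CKO males in edgeR. The male count was also 0 at an unadjusted p under 0.05, in DESeq2 and in limma-voom, and was 1 without male CKO 3. Axin2, a feedback inhibitor and common readout of beta-catenin, was at 27.7 and 26.4 CPM against 9.85, 8.91 and 7.40 CPM (1.63 ± 0.20 SE, adjusted p = 5.86e-05). Nkd1, another feedback inhibitor, was at 59.5 and 49.0 CPM against 14.1, 13.0 and 12 CPM, Notum, a Wnt-inactivating hydrolase, at 27.9 and 28.4 CPM against 9.98 to 10.9 CPM, and Ror2, a Wnt5a receptor, at 33.0 and 36.7 CPM against 5.37 to 8.90 CPM.

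Calls among Nodal pathway genes were mostly male-higher, while those of 2 receptors were female-higher. Of 17 tested genes 9 were called higher in CKO males and 2 higher in CKO females (median log2 difference -0.62). Nodal, the ligand, was at 2.17 and 4.63 CPM in CKO females and at 43.1, 39.8 and 52.8 CPM in CKO males (-3.73 ± 0.33 SE, edgeR adjusted p = 5.86e-06). Tdgf1, which encodes the co-receptor CRIPTO, was at 0.0585 and 0.361 CPM against 27.6, 36.1 and 30.4 CPM (-7.21 ± 0.60 SE, adjusted p = 3.8e-06). Lefty1, an inhibitor and target like Lefty2, was at 0.234 and 0.963 CPM against 168, 189 and 169 CPM (-8.19 ± 0.62 SE, adjusted p = 3.82e-06). For each of these genes all 3 male libraries stood at least several times above both female ones. The female-higher calls were the activin receptors Acvr1b, at 2.52 and 3.82 CPM against 1.25, 1.39 and 1.41 CPM (1.23 ± 0.34 SE, adjusted p = 0.0117), and Acvr2a, at 51.7 and 45.9 CPM against 30.8, 42.2 and 34.8 CPM (0.44 ± 0.14 SE, adjusted p = 0.0225), both named after their values were seen. These calls were 1 without female CKO 1, female CKO 2 or male CKO 1.

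Calls among FGF genes were mostly male-higher, while one receptor was higher in females. Of 14 genes 8 were called higher in CKO males and 2 higher in CKO females (median log2 difference -1.10), and the female calls were 1 without female CKO 1, female CKO 2 or male CKO 2. Fgfr2 was at 24.9 and 37.4 CPM in CKO females and at 164, 157 and 104 CPM in CKO males (-2.18 ± 0.23 SE, edgeR adjusted p = 2.01e-05). Etv5, an ETS factor induced by FGF, was at 112 and 211 CPM against 531, 536 and 510 CPM (-1.70 ± 0.23 SE, adjusted p = 9.61e-05). Fgfr3, a receptor also used as a marker of male germ cells, was at 65.5 and 55.5 CPM in females and at 8.66, 8.88 and 9.74 CPM in males (2.73 ± 0.19 SE, adjusted p = 7.35e-07). The male libraries lay together for Fgfr3 and Etv5 and apart from both female ones.

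Of 19 genes of later male germ cells, 4 (21.1%) were called higher in CKO males and 4 (21.1%) higher in CKO females, shares near those of all autosomal genes (20.1% and 19.1%). The median was -0.29, or -0.06 without female CKO 1 and -0.45 without female CKO 2. The male calls were 1 without female CKO 1 and 2 without male CKO 3. Nanos2, the RNA-binding protein of the male germ line, was at 0.644 and 0.421 CPM in CKO females and at 6.4, 8.98 and 11.0 CPM in CKO males (log2 difference -4.03 ± 1.30 SE, edgeR adjusted p = 0.0288). All male values were above both female ones, yet the call was lost without female CKO 1 (adjusted p = 0.143), without female CKO 2 (0.167) and without male CKO 3 (0.0556). Id4 was at 61.4 and 55.8 CPM in females against 21.8 to 26.8 CPM in males, and Lin28a, an RNA-binding pluripotency factor, at 123 and 89.2 CPM against 44.1 to 65.1 CPM. Dnmt3l, the cofactor of de novo methylation in prospermatogonia, was below 1 CPM in all 5 CKO libraries and was not called (adjusted p = 0.27). Piwil4, the nuclear PIWI protein, was at 24.6 and 21.4 CPM against 13.7, 19.9 and 14.9 CPM (adjusted p = 0.15).

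Calls among pluripotency genes were mostly male-higher. Of 24 tested, 12 were called higher in CKO males and 2 higher in CKO females, and 10 were not called (median log2 difference -0.75). Dppa3, a maternal factor that protects methylation, was at 441 and 408 CPM in CKO females and at 1120, 1250 and 1230 CPM in CKO males (-1.50 ± 0.14 SE, edgeR adjusted p = 8.1e-06). L1td1, an RNA-binding protein of pluripotent cells, was at 8.81 and 14.9 CPM against 77.9, 74.2 and 71.4 CPM (-2.65 ± 0.32 SE, adjusted p = 4.85e-05). Pou5f1 was at 128 and 156 CPM against 238, 255 and 264 CPM (-0.83 ± 0.12 SE, adjusted p = 0.000142). Male libraries were the higher ones without overlap for these genes, and female CKO 2 was above female CKO 1 for L1td1 and Pou5f1. Nanog was at 35.2 and 57.2 CPM in females and at 126, 108 and 127 CPM in males (-1.38 ± 0.23 SE, adjusted p = 0.000479). Sox2 was at 85.0 and 112 CPM against 95.6, 98.8 and 99.3 CPM (0.01 ± 0.13 SE, adjusted p = 0.974), so the females enclosed the males. Nr6a1, a nuclear receptor that represses Pou5f1, was higher in females, at 138 and 146 CPM against 22.9, 22.4 and 18.1 CPM (2.75 ± 0.18 SE, adjusted p = 6.35e-07). Among germ cell identity genes, Prdm1, a repressor of somatic fate, was at 52.5 and 75.3 CPM in females and at 171 to 186 CPM in males, and Alpl, the alkaline phosphatase of primordial germ cells, at 317 and 338 CPM against 76.4 to 97.8 CPM. Ddx4, the germ cell helicase, and Kit, the receptor for stem cell factor, were not called (adjusted p = 0.439 and 0.222).

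Cell cycle genes were called in both directions. Of 33 replication and mitosis genes 9 (27.3%) were called higher in CKO males and 2 (6.06%) higher in CKO females (median -0.16). All autosomal genes had 20.1% and 19.1%, and DESeq2 called 11 and 2 of the list. The median was -0.07 without female CKO 1 and -0.36 without female CKO 2. The male calls were 5 without female CKO 1, and the female calls were 1 without female CKO 2 and 0 without any other single CKO library. Under library size scaling the median of this list changed sign, to 0.02. Of 14 CDK inhibitor, D cyclin and RB family genes 3 (21.4%) were called higher in CKO females and 2 (14.3%) in CKO males. These shares are to be read against the 19.1% and 20.1% of all autosomal genes. Bub1b, a spindle checkpoint kinase, was at 154 and 156 CPM in CKO females and at 332, 342 and 297 CPM in CKO males (log2 difference -1.07 ± 0.13 SE, edgeR adjusted p = 4.26e-05). Cdk4, the D cyclin kinase, was at 211 and 242 CPM against 536, 529 and 555 CPM (-1.25 ± 0.13 SE, adjusted p = 1.9e-05). Its partner Ccnd1 went the other way, at 118 and 70.1 CPM in females and at 14.4, 15.8 and 25.5 CPM in males (2.34 ± 0.39 SE, adjusted p = 0.000468). The kinase was thus the higher one in males and the cyclin in females, with no overlap for either gene. Cdkn1c, an imprinted CDK inhibitor, was at 146 and 135 CPM against 43.1, 49.3 and 60.3 CPM (1.47 ± 0.38 SE, adjusted p = 0.0093), which was lost without female CKO 1 (adjusted p = 0.0603). Ccnd3 and Cdkn2a were not called.

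Glycolysis and apoptosis genes were mostly male-higher where called. Of 17 glycolysis genes 8 were called higher in CKO males and 2 higher in CKO females (median -0.64), and 5 and 1 without female CKO 1. Pkm, pyruvate kinase, was at 893 and 899 CPM in CKO females and at 2260, 2350 and 2050 CPM in CKO males (log2 difference -1.31 ± 0.11 SE, edgeR adjusted p = 5.05e-06). The subunits of lactate dehydrogenase were opposite: Ldhb was at 146 and 170 CPM against 482, 543 and 495 CPM (-1.68 ± 0.17 SE, adjusted p = 1.23e-05), and Ldha at 165 and 154 CPM against 51.1, 48.4 and 48.9 CPM (1.69 ± 0.18 SE, adjusted p = 1.97e-05). Neither pair of groups overlapped. Of 55 oxidative phosphorylation genes 9 were called higher in males and 4 in females (median -0.03, or 0.15 under library size scaling), shares below the background in both directions. The male calls were 5 without female CKO 2, and the female calls 0 without female CKO 1, 2 without male CKO 1 and 1 without male CKO 2. Of 17 apoptosis genes 6 were called higher in males and 1 in females (median -0.27), with 5 male calls and no female call whichever CKO library was left out, where the full DESeq2 and limma-voom fits had 1 and 2 female calls. Bax, the mitochondrial pore protein of cell death, was at 123 and 62.4 CPM in females and at 277, 274 and 276 CPM in males (-1.57 ± 0.21 SE, adjusted p = 8.89e-05).

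Among Polycomb genes some partners of Ezh2 were called although Ezh2 was not. The shares of PRC2 genes called were 18.2% higher in CKO females and 36.4% higher in CKO males, beside 19.1% and 20.1% of all autosomal genes. Of 11 PRC2 genes 4 were called higher in CKO males and 2 higher in CKO females, and the male calls were 2 without female CKO 1 and the female calls 1 without female CKO 2. Eed, a core PRC2 subunit that binds H3K27me3, was at 133 and 151 CPM in CKO females and at 210, 232 and 213 CPM in CKO males (log2 difference -0.62 ± 0.12 SE, edgeR adjusted p = 0.00154). Suz12, the other core subunit, was at 127 and 152 CPM against 240, 187 and 185 CPM (-0.54 ± 0.15 SE, adjusted p = 0.00984), a call lost without female CKO 1 (adjusted p = 0.111). Phf19, a Polycomb-like accessory subunit, was higher in females, at 147 and 141 CPM against 26.7, 19.9 and 23.4 CPM (2.62 ± 0.15 SE, adjusted p = 1.26e-07). Jarid2, another accessory subunit, was higher in males, at 210 and 214 CPM against 406, 306 and 269 CPM (-0.63 ± 0.14 SE, adjusted p = 0.00275). The groups did not overlap for any of these PRC2 genes, as for 99.6% of all called autosomal genes. Of 23 PRC1 genes 7 (30.4%) were called higher in females and 4 (17.4%) in males (median 0.03). Cbx8, a reader of H3K27me3, was at 10.7 and 7.55 CPM in females and at 0.711, 0.590 and 0.447 CPM in males (3.96 ± 0.37 SE, adjusted p = 8.26e-06), and Phc1, a polyhomeotic subunit, at 62.1 and 70.2 CPM against 220, 209 and 185 CPM (-1.63 ± 0.16 SE, adjusted p = 9.25e-06).

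Developmental regulators, a class often marked by H3K27me3, were mostly female-higher when called. Of 25 tested, 14 were called higher in CKO females and 4 higher in CKO males (median log2 difference 2.15), and the male calls were 2 without female CKO 1. The female calls include Cdx2, Dlx3, Hand1 and Gata3 described above, and Otx2 is one of the male calls. In Ctrl cells the same 25 genes held 12 female-higher and 2 male-higher calls (median 2.01), so the pattern was not particular to CKO cells. Pax6, a factor of eye and brain, was low in all CKO libraries, at 0.0878 and 0.271 CPM in females and at 0.440, 0.763 and 0.447 CPM in males (edgeR adjusted p = 0.0429), where Ctrl means were 17.8 CPM in females and 14.3 CPM in males. That Pax6 call was lost in 8 alternatives, among them the fit without female CKO 1 (log2 difference -1.01, adjusted p = 0.292), without male CKO 1 (0.0549), male CKO 2 (0.138) and male CKO 3 (0.0542). Of 24 imprinted genes 12 were called higher in CKO females and 3 higher in CKO males (median 1.51). Plagl1, an imprinted zinc finger factor, was at 62.9 and 70.9 CPM against 7.68, 5.69 and 6.64 CPM (3.32 ± 0.40 SE, adjusted p = 4.83e-05), and Dlk1, a Notch-like ligand, at 18.2 and 12.1 CPM against 2.05 to 2.79 CPM. Usp29 was higher in males, at 9.22 and 11.2 CPM against 26.4 to 36.9 CPM, and Peg3, its neighbour, was not called (adjusted p = 0.0675), with a call once female CKO 2 was left out (log2 difference -0.67, adjusted p = 0.0234).

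Calls among germline defence genes were mostly female-higher. Of 22 piRNA genes 8 were called higher in CKO females and 1 in CKO males, and 13 were not called. Their median log2 difference was 0.17, and from 0.11 without female CKO 1 to 0.47 without female CKO 2. Without female CKO 1 these were 5 and 2, and the male call was lost without female CKO 2 or male CKO 2. Of 20 germline genes whose promoters are under DNA methylation, 11 were called higher in females and 0 in males by edgeR (median 0.69). The male count was also 0 at an unadjusted p under 0.05, in DESeq2 and in limma-voom, and the female count was 5 without female CKO 1. Mael, a piRNA factor, was at 600 and 464 CPM in CKO females and at 148, 187 and 219 CPM in CKO males (1.53 ± 0.24 SE, edgeR adjusted p = 0.000343). Tex101, a germ cell surface protein, was at 257 and 159 CPM against 18.7, 31.9 and 37.6 CPM (2.82 ± 0.33 SE, adjusted p = 3.88e-05). Neither gene overlapped between the sexes. Tet1, the 5-methylcytosine dioxygenase that acts at germline promoters, was at 65.9 and 119 CPM in females and at 257, 208 and 251 CPM in males (-1.37 ± 0.22 SE, adjusted p = 0.000361). Of 11 DNA methylation and TET genes 4 were called higher in males and 1 in females, and the male calls were 2 without female CKO 1, female CKO 2, male CKO 1 or male CKO 2.

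The female CKO libraries were not alike in these programmes. Female CKO 1 exceeded female CKO 2 for 50 of the 63 meiotic genes (79.4%, median log2 ratio 0.48), against 50.3% and 0.0 over all autosomal genes. The excess was in 14 of 15 synaptonemal, 12 of 14 break and axis and 17 of 19 strand exchange genes, and in 7 of 15 initiation regulators. It was also seen in 20 of 22 piRNA and 46 of 55 oxidative phosphorylation genes. Pluripotency genes were lower in female CKO 1, which exceeded female CKO 2 in 4 of 24, as were FGF genes (2 of 14) and replication and mitosis genes (5 of 33). Red blood cell markers summed to 16.2 CPM in female CKO 1 and 1.02 CPM in female CKO 2, and stromal markers to 10.9 and 32.2 CPM. Their part in these differences was not tested. With 2 female embryos these are values of single libraries and carry no test.

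The same sex comparison in Ctrl cells, which shares no library with the CKO comparison and only its estimate of dispersion, called 3066 genes higher in females (20.0%) and 3127 higher in males (20.4%), 40.4% in either direction. Genes called in both genotypes numbered 2162 in the female direction, which is 73.8% of the CKO calls and 70.5% of the Ctrl calls. In the male direction they numbered 2296, 74.7% of the CKO calls and 73.4% of the Ctrl calls. Of the female-higher CKO calls 98.1% had the same sign in Ctrl cells, and of the male-higher ones 97.9%. Across 15323 genes, which are not independent replicates, the log2 differences in the 2 genotypes had a Pearson r of 0.795 and a Spearman rho of 0.792, and an r of 0.909 over the 9711 genes with a mean of at least 5 CPM. Genes called in opposite directions were 2, both higher in CKO males and in Ctrl females, and they were named after their values were seen. Tnc, an extracellular matrix glycoprotein, had log2 differences of -1.21 in CKO and 1.40 in Ctrl, and Uso1, a vesicle tethering protein of the Golgi, -0.41 and 0.32. The test of the change between genotypes gave an edgeR adjusted p of 0.294 for Tnc and 0.385 for Uso1. The DESeq2 adjusted p was 0.00493 and 0.0419, so DESeq2 called the change and edgeR did not.

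**Figure D4:**
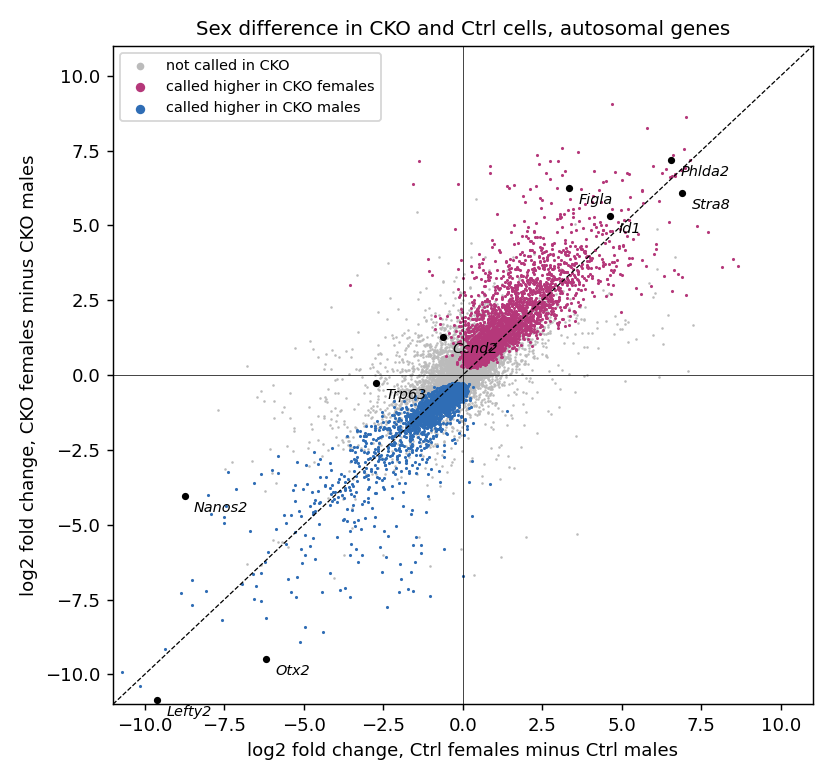
Log2 female minus male difference of each autosomal gene in CKO cells (vertical) against Ctrl cells (horizontal), coloured by the call in CKO cells, with the dashed line marking equal differences. Most called genes lie in the quadrants where both genotypes have the same sign (98.1% of female-higher and 97.9% of male-higher calls).

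Levels of the main genes in Ctrl cells are set beside those in CKO cells. The log2 difference of Stra8 was 6.09 in CKO and 6.91 in Ctrl cells, with Ctrl means of 261 CPM in females and 2.16 CPM in males. Lefty2 averaged 0.793 CPM in Ctrl females and 618 CPM in Ctrl males, and Cdx2 48.8 and 0.371 CPM. Id1 averaged 89.8 and 3.6 CPM, beside the CKO levels of 115 and 92.6 CPM in females and 2.37 to 2.84 CPM in males. Figla was at a mean of 2.17 CPM in Ctrl females, below both CKO females (12.8 and 3.64 CPM), and at 0.212 CPM in Ctrl males. Its sex difference was 6.26 in CKO and 3.35 in Ctrl cells. The test of that change (2.91 ± 1.02 SE) gave an edgeR adjusted p of 0.509, so a change is not shown for Figla. Female levels of Figla were not tested between genotypes. Nanog averaged 95.8 CPM in Ctrl females and 132 CPM in Ctrl males, and its log2 difference was -0.46 there (edgeR adjusted p = 0.0622) beside -1.38 in CKO cells. The test of the difference between these gave an unadjusted edgeR p of 0.00712 and an edgeR adjusted p of 0.493. The 2 values of Nanog are therefore not shown to differ.

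Placed on the axis from male Ctrl (0) to female Ctrl (1), computed over the 6193 genes called in Ctrl cells, the CKO libraries stayed at their own ends. Female CKO libraries were at 1.11 and 1.04 and male CKO libraries at 0.0742, 0.0912 and 0.0965. Female Ctrl libraries ranged from 0.938 to 1.07 and male Ctrl libraries from -0.0668 to 0.0545. Female CKO 1 lay above all Ctrl females and the male CKO libraries slightly above all Ctrl males, and no library lay between 0.0965 and 0.938. Because the axis is built from the Ctrl libraries, their own positions describe its spread and are not a result. The small offsets of CKO libraries from Ctrl libraries are therefore not read as a change and were not tested. In a principal component analysis the first component held 61.3% of the variance and separated the sexes. Female CKO libraries were at 74.7 and 66.6 on it and male CKO libraries at -39.4, -36.4 and -34.7. The second component held 11.9%, with CKO libraries from 13.2 to 30.9. Ctrl females ranged on it from -30.9 to -20.6 and Ctrl males from -31.8 to 10.8, and this separation was not tested.

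**Figure D5:**
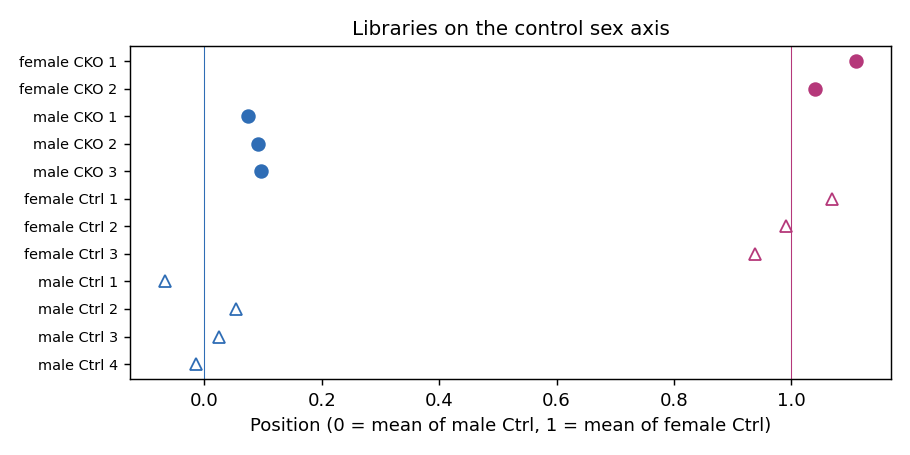
Position of each library between the mean of male Ctrl (0) and the mean of female Ctrl (1), filled circles for CKO and open triangles for Ctrl. Female CKO libraries sit at 1.04 and 1.11 and male CKO libraries at 0.0742 to 0.0965.

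A direct test of whether the sex difference itself changed with genotype called 0 autosomal genes (0.0%) in edgeR, with a smallest adjusted p of 0.155 and 1286 genes at an unadjusted p under 0.05. The limma-voom fit also called 0 and DESeq2 called 48, of which 11 had a higher and 37 a lower female minus male difference in CKO cells. Leaving out female CKO 1 gave 3 calls and dropping the low-count filter gave 2. Standard errors bound this test: the median SE of the difference was 0.32 on the log2 scale, beside 0.25 for the CKO comparison. The following 2 genes are among the DESeq2 calls and were named after their values were seen. Dync1i1, a dynein intermediate chain, averaged 15.2 CPM in CKO females, 4.91 in CKO males, 16.1 in Ctrl females and 1.74 in Ctrl males (difference of log2 differences -1.58, DESeq2 adjusted p = 7.84e-05, edgeR adjusted p = 0.155). Trp63, a p53 family factor of oocyte quality control and epithelia, averaged 2.81, 3.39, 0.419 and 2.79 CPM in the same order (2.46, edgeR adjusted p = 0.294). Over the 63 meiotic genes the median difference of differences was 0.22, with 45 positive, beside -0.02 and 48.2% positive over all autosomal genes. Without female CKO 1 the median CKO sex difference of these genes was 0.73, and the Ctrl median was also 0.73. The positive median is therefore not shown apart from that 1 library.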

How the data were processed

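RNA-seq was made from primordial germ cells sorted from single embryos at E13.5, in 12 libraries. Per the labels' protocols, cDNA was made from 1 ng of total RNA with 11 cycles of amplification and fragmented before library preparation, which does not mark strand, so overlapping genes cannot be told apart. The authors deposited 1 table of whole-number read counts per gene for all libraries. The tools used, per the submitters' processing notes and without their roles, were featureCounts, TopHat2 2.0.11, Trimmomatic 0.33 and CASAVA 1.8.4, and the build was mm9 (NCBIM37). Of 37991 identifiers 32938 matched the GENCODE M21 annotation, which holds 99.5% of the counts and places 30594 on autosomes. That annotation has another build, so no gene coordinates are given except for RefSeq promoters (GRCm38.p6). Every count column mapped to 1 sample by its name.

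Counts were filtered with filterByExpr (minimum count 10, minimum total 15), TMM-scaled and fitted with edgeR 4.0.16 (R 4.3.3) by the robust quasi-likelihood test. All 12 libraries and 4 groups entered 1 fit with 8 residual degrees of freedom. Adjusted p-values are Benjamini-Hochberg over 16708 genes, autosomal and other. Contrasts were CKO females minus CKO males, Ctrl females minus Ctrl males, and their difference. Alternatives used DESeq2 1.42.0, limma 3.58.1, other scalings and filters, and left out each library. The steps were tested on simulated data. TMM-scaled CPM carry no length correction, so levels are not compared between genes. Counting intervals (95%) cover counting error only. Chi-square per gene between replicates was 18.6 to 74.3, so no library was a duplicate.

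Genes named are Ezh2; the 12 per direction with the largest called difference, no overlap between groups and, in the higher group, an average of 5 CPM or more; up to 4 called members per list with the smallest adjusted p; and a set of known germ cell genes. The last part of the rule, for called genes whose sex difference changed with genotype, named none. The comparison, lists and genes were chosen with earlier results of these data known. A comparison of motif shares between called sets was void, because promoters matched 79.0% of female-higher, 77.6% of male-higher and 74.9% of all tested autosomal genes, below the 80% needed. Some genes that the rule names are not reported here.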

Additional observations from a re-analysis of the deposited data

Results flagged for a closer look

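Of 120 measures (named genes and marker sums) checked in the 4 male Ctrl libraries for a library far from the other 3, 7 held one, and chance gives about 1 in 20. None is a CKO library, since groups of 2 and 3 were not checked. Male Ctrl 2 stood apart in 5 cases. Phlda2 was at 9.45 CPM there, Hand1 at 0.743 CPM and Msx2 at 6.81 CPM, each the highest male Ctrl value, and all 3 are female-higher genes. Pkm was at 2690 CPM in the same library. The germ cell identity genes summed to 6200 CPM in it. Dnmt3l was at 0.701 CPM in male Ctrl 1. Sertoli cell markers summed to 51.2 CPM in male Ctrl 1, above every other library.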

How the results depend on the processing

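Over 14 alternatives, 99 of the 107 named genes called in the CKO comparison kept their call in every alternative that tested them. Another 8 lost it in at least 1 (among them Cdkn1c, Dazl, Dnmt3b, Mcl1, Nanos2, Pax6 and Suz12), and 0 reversed. The filter of at least 5 CPM in 2 libraries tested 109 of the 116 named genes of the main fit. Most named genes were chosen by the main fit for large differences or small adjusted p, so these counts do not describe all calls. Leaving out single libraries gave 1762 to 2582 female-higher and 2078 to 2667 male-higher CKO genes, 2372 to 3177 and 2464 to 3176 Ctrl genes, and 0 to 3 genes for the difference of differences; the lowest CKO counts and the 3 came without female CKO 1, which leaves 1 female CKO library, assumed to vary like the other groups. For that difference DESeq2 called 48 genes and the fit without a low-count filter 2. Scaling by library size alone shifted the median log2 difference by 0.18 in CKO and 0.1 in Ctrl cells and gave 3948 female-higher and 2139 male-higher CKO genes, 64.9% of calls female-higher instead of 48.8% (Ctrl 59.9% instead of 49.5%), so the balance of directions rests on the scaling. Other fits gave 2437 to 3481 female-higher and 2469 to 3277 male-higher CKO genes. A replicate block on the numbers in the titles gave 2700 and 3018 in CKO cells and 2862 and 2930 in Ctrl cells; the numbers were not taken to pair the embryos, since deviations of same-numbered libraries correlated at -0.0223 and -0.0953 within CKO, and over all 15 same-numbered pairs of groups at -0.0953 to 0.152, with 3 pairs over 0.1. List counts without each CKO library were added after seeing the data. With 2 female CKO embryos, small differences are beyond what these libraries can show.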
